A study of Mus musculus with 2 samples.

Results

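Universal-type fibroblasts of mouse mammary tumours were examined in single-cell RNA sequencing data. They were barcodes rich in collagen transcripts in which Dpt, Pi16, Tnxb and Sfrp2 together matched or exceeded Acta2, Tagln, Tnc and Postn. The latter genes are called contractile below, although Tnc and Postn encode matrix proteins. Selection used unique molecular identifiers (UMIs), the tags that count captured RNA molecules. A barcode needed at least 200 genes, at most 20% mitochondrial UMIs, at least 1% of its UMIs from Col1a1, Col1a2 and Col3a1, no UMI of Ptprc, Epcam or Pecam1, fewer than 3 UMIs of Rgs5 and Notch3, and at least 3 UMIs of the universal-type genes. The rule found 236 cells among 21664 kept barcodes, 127 in the beta-elemene library and 109 in the vehicle library.

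The tumours were grown from 4T1 cells, a mouse line of triple-negative breast cancer, placed in the mammary fat pad with Matrigel. The beta-elemene group received the plant sesquiterpene beta-elemene at 30 mg/kg into the abdomen every day, and the vehicle group received normal saline in the same volume. Tumours were taken after 18 days, dissociated with enzymes, strained, freed of red cells and loaded on a 3' droplet instrument. By its title the study asks how beta-elemene alters immunity and metabolism in triple-negative breast cancer. Each group was 1 library, and the labels do not give the number of mice in it, so no difference between the groups has a replicate check and no test was made. Intervals below are exact 95% intervals unless another kind is named, and they cover counting error only. The cells carried 2534434 UMIs in the beta-elemene library and 1666578 UMIs in the vehicle library. Their median depth was 19931 UMIs and 4326 genes with beta-elemene, against 15942 UMIs and 3595 genes with vehicle, and median mitochondrial shares were 2.11% and 2.05%. In the beta-elemene library 4 cells held under 5000 UMIs, and in the vehicle library 18 cells did.

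Fibroblasts marked by Pi16 and Dpt are found across mouse tissues, in the connective tissue around vessels and in the fascia, and are often described as progenitors from which more specialised fibroblasts arise. They make the loose collagen matrix, the proteoglycans that organise it and the elastic microfibrils, and they secrete complement proteins and chemokines. Contractile fibroblasts of tumours, called myofibroblasts, instead make smooth muscle actin and the wound matrix proteins tenascin C and periostin. Universal-type cells are commonly placed at one end of a range that runs to myofibroblasts.

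The marker genes fitted the name, as a description, since the rule used 4 of these 5 genes. Levels are given as CPM, each gene's UMIs summed over the cells of a library and scaled to 1000000 UMIs of the same cells. Dpt, which encodes the matrix protein dermatopontin, had 1304 CPM with beta-elemene and 1141 CPM with vehicle, against 144 and 126 CPM in other fibroblasts of the same libraries. Pi16, a secreted and membrane-bound peptidase inhibitor homologue, had 1190 CPM with beta-elemene and 1331 CPM with vehicle. Tnxb, the matrix protein tenascin X, had 848 and 779 CPM, and the Wnt modulator Sfrp2 had 873 and 1106 CPM. Decorin, encoded by Dcn and not used by the rule, had 4454 CPM with beta-elemene and 4150 CPM with vehicle, against 1320 and 1214 CPM in other fibroblasts. The platelet-derived growth factor receptor Pdgfra, a general fibroblast marker, had 226 CPM with beta-elemene and 271 CPM with vehicle.

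Malignant, myeloid, endothelial and adipocyte markers were far below their levels in those cell types, or near 0. T cell and pericyte markers were not set against T cells or pericytes. They were compared with the class of Ptprc-positive barcodes and with other fibroblasts, and were less far below these. The 12 malignant markers summed to 110 CPM with beta-elemene and 93.6 CPM with vehicle, against 5741 and 4688 CPM in keratin-positive malignant-like barcodes. The 10 macrophage and monocyte markers summed to 232 and 247 CPM, against 15191 and 13804 CPM in barcodes with Ptprc. The 7 neutrophil markers summed to 124 and 131 CPM, the 8 endothelial markers to 30.4 and 44.4 CPM and the 6 adipocyte markers to 1.58 and 0.60 CPM. The 8 T and natural killer cell markers summed to 183 CPM with beta-elemene and 178 CPM with vehicle, against 332 and 320 CPM in Ptprc-positive barcodes, and nearly all of it was Cd3e, with Trbc2, Cd2 and Ncr1 at 0 in both libraries. The 8 pericyte and smooth muscle markers summed to 240 and 284 CPM, against 617 and 583 CPM in other fibroblasts, with Mcam and Higd1b at 0 in both libraries. If every macrophage, monocyte and neutrophil marker UMI came from free RNA, free RNA would make up 3.94% of the cells' UMIs with beta-elemene and 5.61% with vehicle. No cell was called a doublet by comparison with simulated doublets, although 315 and 338 of the kept barcodes were.

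**Figure D1:**
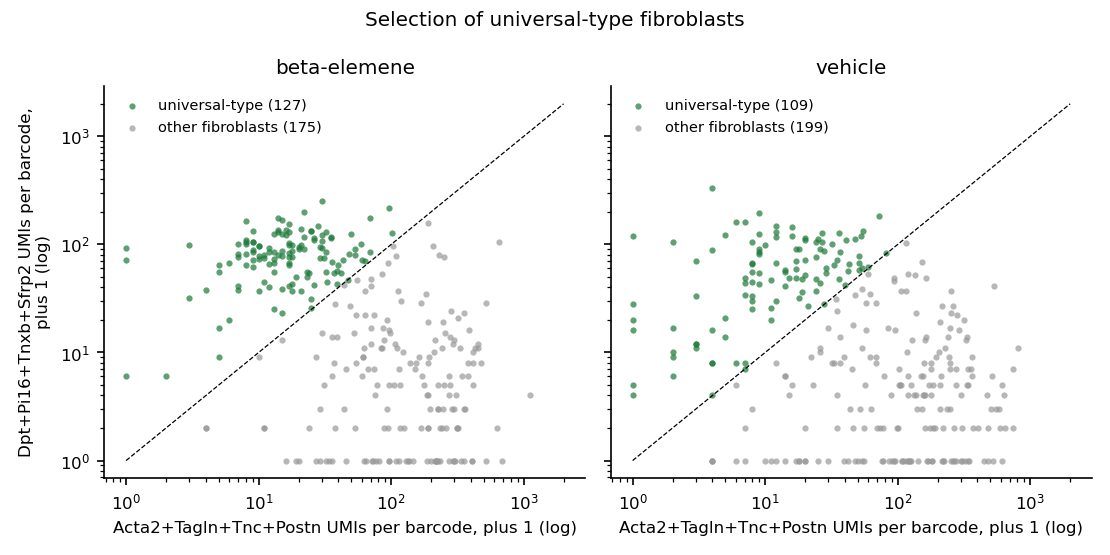
Each point is 1 collagen-rich barcode past the negative gates, with its contractile UMIs on the horizontal axis and its universal-type UMIs on the vertical axis, both plus 1 on log scales. The dashed line marks equal totals. Green points on or above the line are the 127 beta-elemene (left) and 109 vehicle (right) universal-type cells, and grey points are 175 and 199 other fibroblasts.

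The boundary with the other fibroblasts was not empty, as the plot of universal-type against contractile UMIs shows. Cells within 1.5 times of equal totals numbered 12 with beta-elemene and 14 with vehicle, and just outside lay 10 and 7 barcodes, of which the nearest had 0.953 and 0.909 universal-type UMIs per contractile UMI. The median universal-type total was 80 UMIs with beta-elemene and 57 UMIs with vehicle, and the lowest were 5 and 3 UMIs. The collagen share had a median of 3.40% with beta-elemene and 3.83% with vehicle, with a minimum of 1.05% in both. Of the collagen-rich barcodes, 589 and 618 in all, a Ptprc, Epcam or Pecam1 UMI removed all but 309 and 318.

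Universal-type fibroblasts made up 1.17% of kept barcodes with beta-elemene (0.976 to 1.39) and 1.01% with vehicle (0.829 to 1.22). The difference of 0.160 percentage points had an interval from -0.116 to 0.437, which covers counting error within 1 library per group and not the spread between animals. Among all fibroblast barcodes past the gates they made up 41.2% of 308 with beta-elemene and 34.7% of 314 with vehicle, a difference of 6.52 points with an interval from -1.09 to 14.1. When all barcodes were thinned to 5000 UMIs before the rule was applied, the rule found 178 and 144 cells. The ratio of shares was then 1.32 (1.05 to 1.66), against 1.16 (0.890 to 1.51) at full depth. Thinning also removes UMIs of the gate genes, so these are not the same cells at equal depth. With 1 UMI of a gate gene allowed at full depth, the rule found 179 and 155 cells, with a ratio of 1.15 (0.921 to 1.43). In every setting tried but the thinned one the interval held 1. A dissociated tumour gives shares of captured cells, which can differ from shares in the tissue.

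Beside the other fibroblasts of the same tumours, universal-type cells had higher levels of the progenitor programme, complement and microfibril genes, and lower levels of contractile, hypoxia, glycolysis and cholesterol synthesis genes. These contrasts describe cells that were selected on one side of them. A gene was counted as different at a ratio of at least 2 in both libraries with both intervals excluding 1. That held for 345 of 7945 genes on the higher side, which is 4.34%, and for 376 on the lower side, which is 4.73%, or 9.07% in either direction. The median log2 ratio over all these genes was 0.02 with beta-elemene and -0.02 with vehicle. All 19 measured genes of the adventitial progenitor list were higher. Clec3b, a plasminogen-binding lectin also called tetranectin, was 22.5-fold higher with beta-elemene and 32.2-fold higher with vehicle. Cd55, which shields cells from complement, was 23.9-fold and 17.4-fold higher. Cd34, a surface sialomucin of progenitor cells, was 15.1-fold and 13.2-fold higher, and Dpp4, a surface peptidase that marks fascial progenitors, was 5.64-fold and 5.0-fold higher. The semaphorin Sema3c was 7.17-fold and 13.7-fold higher, and the surface antigens Ly6c1 and Ly6a were 12.2-fold and 14.6-fold, and 8.90-fold and 10.4-fold, higher.

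Further genes that stood above the other fibroblasts in both libraries included the ferritin receptor Scara5 (21.5-fold with beta-elemene and 102-fold with vehicle), Pamr1 (19.0-fold and 20.2-fold), the Wnt modulator Sfrp4 (23.1-fold and 14.3-fold), Stxbp6 (12.2-fold and 13.8-fold), the matricellular protein Ccn3 (11.6-fold and 17.4-fold) and Lrrn4cl (10.2-fold and 15.9-fold). Complement counted 8 of 13 genes higher and none lower. Its central component C3 was 6.70-fold higher with beta-elemene and 4.55-fold higher with vehicle, C4b was 5.11-fold and 5.08-fold higher, and the alternative pathway factor Cfb was 3.53-fold and 3.03-fold higher. Of 17 elastic fibre genes 7 were higher, among them fibrillin 1, encoded by Fbn1, at 2.68-fold and 2.59-fold and Efemp1 at 8.98-fold and 11.5-fold, and Ltbp2 was the 1 that was lower. Type XIV collagen, encoded by Col14a1, was 5.09-fold and 7.38-fold higher. The proteoglycans Ogn and Prelp were 7.76-fold and 9.31-fold, and 6.27-fold and 7.11-fold, higher. The lymphatic growth factor Vegfd was 5.65-fold and 6.42-fold higher.

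On the lower side stood 18 of 24 myofibroblast genes, a list that holds genes of the rule. Periostin, encoded by the rule gene Postn, was not near 0. It had 882 CPM with beta-elemene and 908 CPM with vehicle, against 1765 and 2002 CPM in other fibroblasts. A Postn UMI was seen in 96.9% and 91.7% of universal-type cells. Smooth muscle actin, encoded by Acta2, had 56 and 33 UMIs in universal-type cells, against 6575 and 6550 UMIs in other fibroblasts, and Tagln had 69 and 46 against 8463 and 8519. Calponin, encoded by Cnn1, had 1 UMI in the universal-type cells of each library, against 128 and 158 UMIs in other fibroblasts. The potassium channel gene Kcnq3 had none in either library, which against a floor of 3 UMIs per library makes it at least 24.4-fold lower with beta-elemene and at least 16.0-fold lower with vehicle. Actg2, another smooth muscle actin, had 2 UMIs with beta-elemene and none with vehicle, which makes it at least 64.2-fold lower in the vehicle library. Megf11 had 1 and 0 UMIs against 139 and 112 in other fibroblasts, and the semaphorin Sema7a had 2 and 1 against 188 and 192. Gzme, a granzyme gene, had 9 UMIs in 1 cell with beta-elemene and none with vehicle. Inhba, a subunit of activin, stood at 0.0225 and 0.0161 times the level of other fibroblasts. Hypoxia counted 13 of 21 genes lower and none higher. Its angiogenic growth factor Vegfa stood at 0.147 times with beta-elemene and 0.148 times with vehicle. Cholesterol synthesis counted 10 of 19 lower, with Fdps at 0.224 times in both libraries, and glycolysis counted 6 of 18 lower, with the kinase Pgk1 at 0.359 and 0.334 times.

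**Figure D2:**
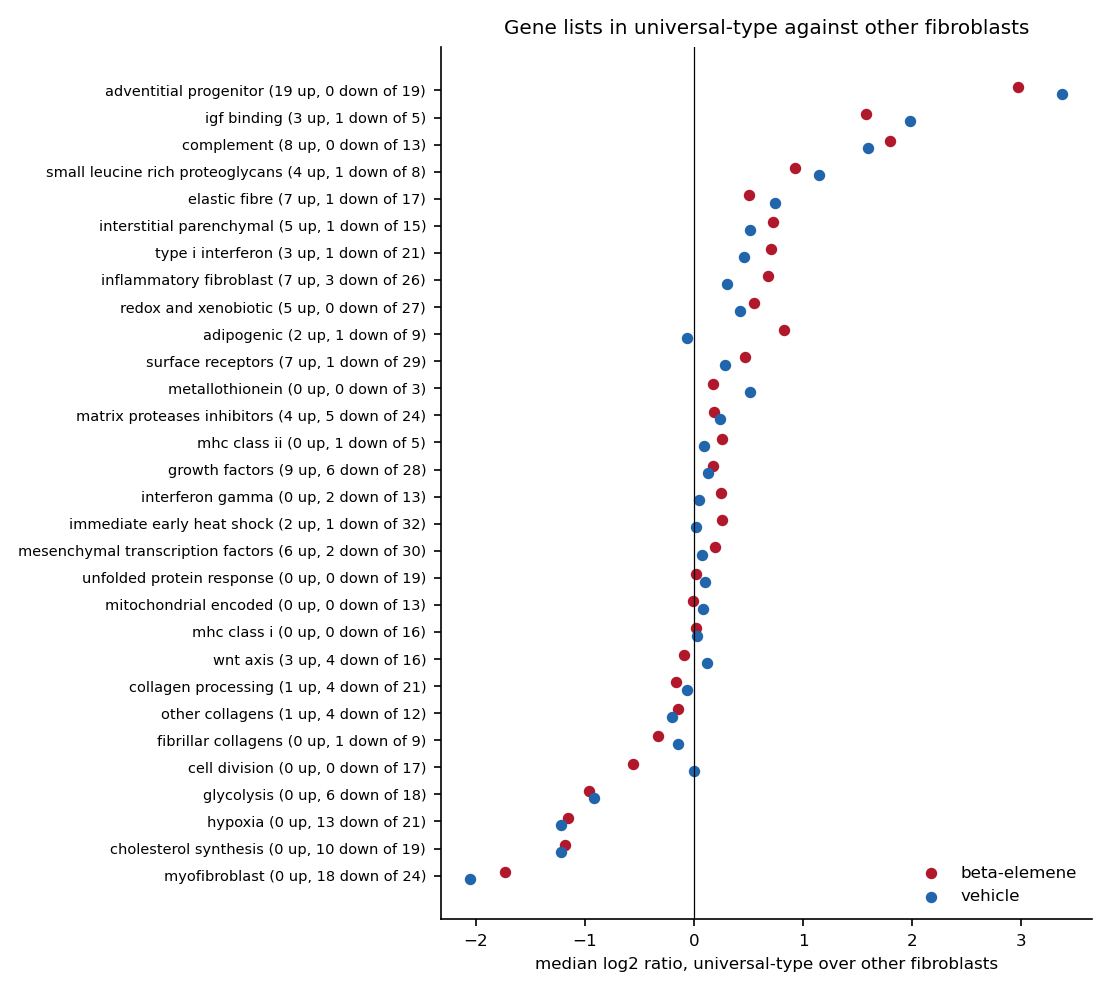
Median log2 ratio of universal-type over other fibroblasts for each of 30 gene lists, with red points for the beta-elemene library and blue points for the vehicle library. Labels give how many measured genes were at least 2-fold higher or lower in both libraries. Adventitial progenitor genes had medians of 2.97 and 3.38 at the top, and myofibroblast genes had medians of -1.73 and -2.05 at the bottom.

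Universal-type cells were not uniform. To compare them at one depth, each cell was thinned to 5000 UMIs, which left 123 cells with beta-elemene and 91 cells with vehicle. A Pi16 UMI was seen in 88.6% of them with beta-elemene and 83.5% with vehicle, against 4.86% and 4.91% of thinned Ptprc-positive barcodes, and in 97.6% and 89.9% of unthinned cells. A Dpp4 UMI was seen in 53.7% and 54.9%, against 4.65% and 3.39% of Ptprc-positive barcodes. Col15a1, which encodes a basement membrane collagen of fibroblasts deeper in tissue, was seen in 10.6% and 17.6%, against 1.92% and 1.30%. The intervals of the beta-elemene and vehicle shares overlapped for each of these 3 genes.

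Cells with a Col15a1 UMI formed a minority with its own pattern in both libraries, 13 of 123 with beta-elemene and 16 of 91 with vehicle. They held higher levels of 33 genes and lower levels of 35 genes out of 3006, at 2-fold in both libraries. Lipoprotein lipase, encoded by Lpl, had 2277 CPM in cells with Col15a1 and 155 CPM in cells without it with beta-elemene, and 712 and 66.7 CPM with vehicle. The carboxypeptidase-like gene Cpxm1 had 5846 against 529 CPM with beta-elemene and 4012 against 691 CPM with vehicle. Type IV collagen, encoded by Col4a1, had 1338 against 158 CPM and 738 against 93.3 CPM. The chemokine Cxcl12 had 846 against 120 CPM and 600 against 163 CPM, and the axon guidance ligand Slit2 had 277 against 38.2 CPM and 350 against 24 CPM. The same cells had less Sema3c, at 30.8 against 376 CPM and 62.5 against 403 CPM, less of the Wnt ligand Wnt2, at 30.8 against 231 CPM and 62.5 against 235 CPM, and less Igfbp5, at 46.2 against 322 CPM and 12.5 against 197 CPM. These low levels rest on few UMIs, and the ratio of Igfbp5 had intervals of 0.0293 to 0.426 with beta-elemene and 0.00158 to 0.364 with vehicle. In other fibroblasts 53.4% and 57.2% of thinned cells carried a Col15a1 UMI.

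Pi16, which the selection rule counted, and Dpp4 were used for further splits, given as description. Out of 3006 genes, cells with a Pi16 UMI had more of 21 and less of 6 in both libraries, beside 94 and 76 higher and 113 and 99 lower in the single libraries. The higher ones in both included Cd55, Dpp4, Sema3c, Clec3b, Ccn3, the aggrecanase Adamts5, the glutathione transferase Gstm1 and Ugdh, which makes the sugar precursor of hyaluronan. Clec3b had 938 CPM in cells with Pi16 and 214 CPM in cells without it with beta-elemene, and 718 and 253 CPM with vehicle. Only 14 and 15 cells were without Pi16, so some intervals were wide, for the ratio of Gstm1 1.15 to 269 and 1.06 to 16.5. Cells with a Dpp4 UMI had more of 50 genes with beta-elemene and 138 with vehicle, of which 4 were shared (Igfbp5, Gstm1, Thbd and Papss1), and less of 102 and 62, of which 10 were shared, including Cxcl14, Saa3, Cxcl12, Gas6, Mgp, Cpxm1 and Col15a1. Saa3, an acute-phase apolipoprotein, had 888 CPM in cells with Dpp4 and 1986 CPM in cells without it with beta-elemene, and 1876 and 6815 CPM with vehicle. Lyz2, a macrophage lysozyme, was also lower in cells with Dpp4, at 54.5 against 119 CPM and 60.0 against 151 CPM, and its part in these differences was not tested.

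Between treatments, the universal-type cells of the beta-elemene library had lower levels of the acute-phase gene Saa3, the chemerin gene Rarres2, both metallothioneins and the kinase gene Cdk8, and higher levels of several interferon-related genes. A gene was counted as higher or lower with beta-elemene at a ratio of at least 1.5 or at most 0.667 with an interval excluding 1, among genes with at least 50 UMIs in both libraries together. That held for 431 of 7315 genes on the higher side, which is 5.89%, and for 143 on the lower side, which is 1.95%, or 7.85% in either direction. The median log2 ratio over all measured genes was 0.13. With scaling by a trimmed mean, which brought it to 0.03, 232 genes were higher and 235 lower, so that 49.7% of called genes were higher in place of 75.1%. Calls in universal-type cells and in other fibroblasts overlapped in part. Of 418 higher genes measured in both classes, 29 were also higher in other fibroblasts, which is 6.94% of these and 11.6% of the 250 called there, and of 135 lower genes 32 were shared, which is 23.7% of these and 21.3% of 150. In other fibroblasts 4.79% of measured genes were higher, 2.96% were lower and 7.75% were either. When the ratio in universal-type cells was divided by the ratio in other fibroblasts, 5.12% of 7193 genes were at least 1.5-fold higher and 2.63% lower, 7.74% in all.

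**Figure D3:**
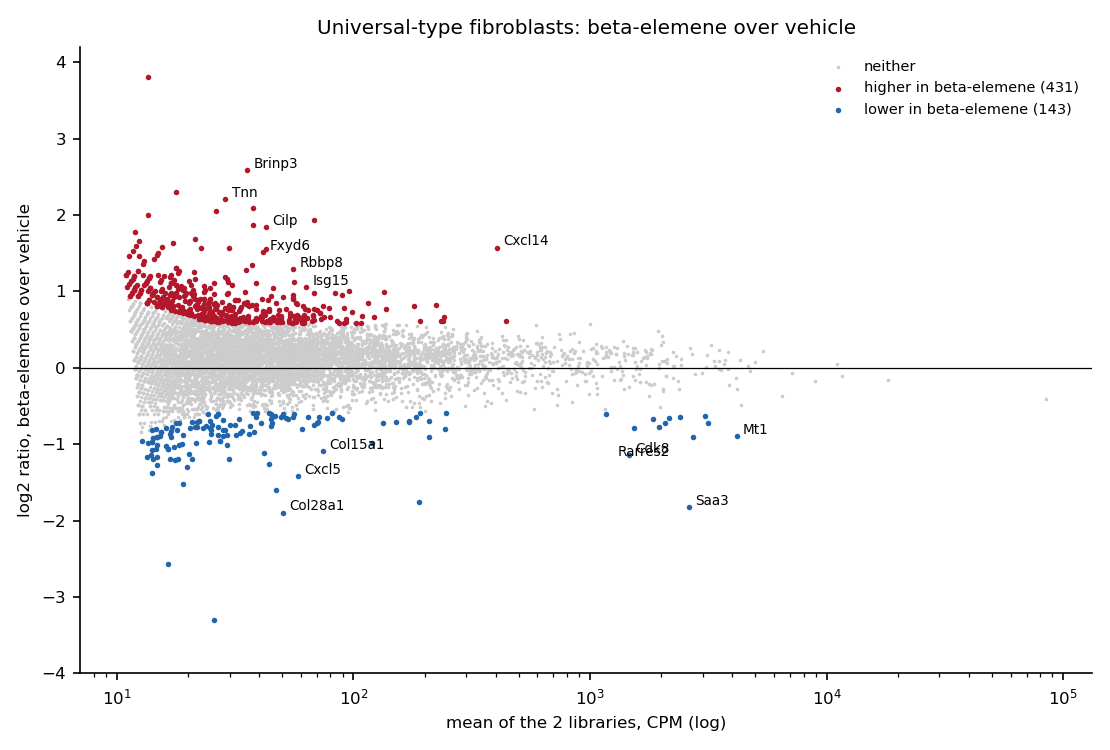
Each point is 1 of 7315 genes in universal-type fibroblasts, with the mean level of the libraries in CPM on a log horizontal axis and the log2 ratio of beta-elemene over vehicle on the vertical axis. Red points mark the 431 genes called higher and blue points the 143 called lower, and Saa3, Cdk8, Rarres2 and Mt1 stand apart on the lower side at high level.

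The inflammatory and acute-phase genes did not move together. Saa3 (chromosome 7, 46711998 to 46715700) had 2937 UMIs or 1159 CPM with beta-elemene, against 6834 UMIs or 4101 CPM with vehicle, a ratio of 0.283 (0.271 to 0.295). It was uneven between cells, with a UMI in 46.5% of cells with beta-elemene and 55.0% with vehicle, and 10 cells held 67.3% and 81.4% of its UMIs. Without those cells its ratio was 0.496 (0.455 to 0.540). Leaving out the 10 richest cells for each gene moved the median log2 ratio of all genes from 0.13 to 0.36. In other fibroblasts the ratio of Saa3 was 0.340, and in Ptprc-positive barcodes, where it had 187 and 122 CPM, it was 1.53. Cxcl5, a chemokine that attracts neutrophils, had 31.6 and 84.6 CPM, a ratio of 0.373 (0.280 to 0.494), with 96.2% and 94.3% of UMIs in 10 cells. Has2, which makes hyaluronan, had a ratio of 0.613, or 0.910 without its 10 richest cells of each library. Of 24 measured genes of the inflammatory fibroblast list 2 were higher, 3 were lower and 19 were neither, and the median log2 ratio was 0.10, or 0 to the second decimal under trimmed-mean scaling. Ccl2 and Cxcl1, which attract monocytes and neutrophils, had ratios of 1.06 and 1.17, and Il6 had a ratio of 1.28, and none of them met the limit.

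Rarres2, which encodes the chemoattractant and adipokine chemerin, differed at the median and quartiles of the cells. It had 4812 UMIs or 1899 CPM with beta-elemene and 5926 UMIs or 3556 CPM with vehicle, a ratio of 0.534 (0.514 to 0.555). A UMI was seen in 72.4% of cells with beta-elemene and 96.3% with vehicle, the median cell had 637 and 2368 CPM, the upper quartile was 2554 and 5154 CPM, and the highest cell had 19291 and 15069 CPM. The ratio was 0.534 (0.509 to 0.560) without the 10 cells richest in it. In other fibroblasts Rarres2 had a ratio of 0.763, and the ratio of the ratios was 0.700 (0.668 to 0.734, interval on the log scale). Rarres2 also had ratios of 0.530 in Ptprc-positive, 0.764 in endothelial and 0.252 in mural barcodes, the last from 18 and 26 barcodes. In malignant-like barcodes its ratio was 1.49. Cdk8, a kinase of the Mediator complex, had 914 CPM with beta-elemene and 2014 CPM with vehicle, a ratio of 0.454 (0.430 to 0.479), and the median cell had 664 and 1395 CPM. Whether intron reads were counted is not given, so the Cdk8 value may hold UMIs from outside its exons. Cdk8 was lower in the other classes too, with ratios of 0.602 in other fibroblasts, 0.607 in malignant-like, 0.624 in Ptprc-positive, 0.576 in endothelial and 0.678 in mural barcodes. Endothelial barcodes also carried myeloid markers, at levels given with Isg15 below.

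Both measured metallothioneins, small proteins that bind zinc and copper, were lower with beta-elemene. Mt1 (chromosome 8, 94179082 to 94180327) had 7427 UMIs or 2930 CPM with beta-elemene, against 9032 UMIs or 5419 CPM with vehicle, a ratio of 0.541 (0.524 to 0.558). Mt2 had 1440 CPM with beta-elemene and 2468 CPM with vehicle, a ratio of 0.583 (0.558 to 0.610). The median cell had 2028 and 2591 CPM of Mt1, and 1170 and 1405 CPM of Mt2. In other fibroblasts the ratio of Mt1 was 0.861, and the ratio of the ratios was 0.628 (0.605 to 0.651). The ratio of Mt2 there was 0.742. Both genes were lower in the other classes too. Mt1 had ratios of 0.952 in malignant-like, 0.779 in Ptprc-positive, 0.836 in endothelial and 0.217 in mural barcodes. For Mt2 these were 0.811, 0.649, 0.642 and 0.105, the mural values from 18 and 26 barcodes. Without the 10 cells richest in the gene the ratios in universal-type cells were 0.664 for Mt1 and 0.699 for Mt2, where the all-gene median log2 ratio was 0.36. Slc39a14, a metal transporter and the third measured gene of the list, met no limit, and the list median of the log2 ratios was -0.78.

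The promoters of the 5 genes below are shown to set the lower metallothioneins, the lower Saa3 and the higher interferon-related genes beside the sequence elements those families are known for. They are the 250 bases before the RefSeq start in build GRCm38.p6, read 5′ to 3′ on the gene's strand, and capitals mark the matches. The metal response element, bound by the zinc-sensing factor Mtf1, was searched as TGCACNC and TGCGCNC on both strands, and 21.4% of 32851 promoters of this length hold one and 1.26% hold at least 3. Within these 250 bases Mt1 (chr8:94178839-94179088, plus strand) held 1 match and Mt2 (chr8:94172368-94172617, plus strand) held 3. Bases outside the window were not searched, so these are not counts of all elements of the genes.
Mt1: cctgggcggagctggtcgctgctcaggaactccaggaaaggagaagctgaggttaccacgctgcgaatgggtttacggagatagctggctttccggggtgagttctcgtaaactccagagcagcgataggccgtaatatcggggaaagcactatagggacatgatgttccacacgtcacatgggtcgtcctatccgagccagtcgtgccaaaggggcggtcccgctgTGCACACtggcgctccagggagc
Mt2: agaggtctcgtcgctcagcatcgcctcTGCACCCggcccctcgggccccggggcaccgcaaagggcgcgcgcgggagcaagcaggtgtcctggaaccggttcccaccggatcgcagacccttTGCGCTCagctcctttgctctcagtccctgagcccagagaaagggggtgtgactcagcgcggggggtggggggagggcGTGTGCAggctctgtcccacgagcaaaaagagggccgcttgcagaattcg
The C/EBP element of acute-phase genes was searched as TTGCNNAA on both strands, and 9.56% of promoters hold one. Saa3 (chr7:46715677-46715926, minus strand) held 1 match.
Saa3: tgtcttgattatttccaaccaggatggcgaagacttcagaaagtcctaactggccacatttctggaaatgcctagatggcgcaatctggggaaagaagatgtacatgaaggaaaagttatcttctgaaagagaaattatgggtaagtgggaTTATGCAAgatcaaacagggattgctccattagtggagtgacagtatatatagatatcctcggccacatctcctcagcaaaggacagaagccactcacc
The interferon-stimulated response element was searched as GAAA, any 2 bases and GAAA on both strands, and 2.98% of promoters hold one, while 0.180% hold at least 2. Isg15 (chr4:156200819-156201068, minus strand) held 3 matches that overlap one another, and Ifit1 (chr19:34640639-34640888, plus strand) held 2.
Isg15: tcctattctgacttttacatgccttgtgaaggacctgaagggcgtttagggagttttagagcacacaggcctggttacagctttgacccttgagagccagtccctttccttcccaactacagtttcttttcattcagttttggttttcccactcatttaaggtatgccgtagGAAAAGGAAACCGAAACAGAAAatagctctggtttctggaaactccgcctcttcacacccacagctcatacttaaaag
Ifit1: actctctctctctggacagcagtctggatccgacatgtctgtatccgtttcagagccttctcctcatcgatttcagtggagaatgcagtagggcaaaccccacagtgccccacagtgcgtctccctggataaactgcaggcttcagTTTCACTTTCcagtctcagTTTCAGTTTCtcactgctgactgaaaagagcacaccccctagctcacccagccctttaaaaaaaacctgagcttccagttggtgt
Such matches describe letters and not binding.

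Interferon-related genes were on the higher side with beta-elemene. Of 12 measured genes of the interferon gamma list 5 were higher, none was lower and 7 were neither, with a median log2 ratio of 0.56 beside 0.13 over all genes. Under trimmed-mean scaling 3 of 12 were higher, and with 10 CPM added to both levels 2 of 12. Jak2, the kinase of the interferon gamma receptor, had 118 CPM with beta-elemene and 61.2 CPM with vehicle, a ratio of 1.93 (1.54 to 2.45). The transcription factor Irf1 had 88.8 and 57.0 CPM, a ratio of 1.56 (1.22 to 2.0), and a UMI in 62.2% and 38.5% of cells. The immunity GTPase Iigp1 had 31.6 and 15.0 CPM, Gbp7 had 31.6 and 19.2 CPM and Nmi had 37.9 and 24.6 CPM. Of 22 genes of the type I interferon list 6 were higher, none was lower and 16 were neither, and 5 were higher under trimmed-mean scaling. The list median was 0.23, nearer to the 0.13 over all genes, of which 5.89% were higher and 1.95% lower. Isg15, a ubiquitin-like antiviral protein, had 216 UMIs or 85.2 CPM with beta-elemene, against 68 UMIs or 40.8 CPM with vehicle, a ratio of 2.09 (1.58 to 2.79). In cells thinned to 5000 UMIs Isg15 was seen in 24.4% with beta-elemene and 6.59% with vehicle, against 31.5% and 23.5% of Ptprc-positive barcodes. Thinned to 10000 UMIs the shares were 33.3% and 23.7%, with overlapping intervals, against 39.5% and 33.2% of Ptprc-positive barcodes, so no difference is read from the shares. Bst2, a surface protein that tethers enveloped virus, had 123 and 74.4 CPM, a ratio of 1.66 (1.34 to 2.06). Parp14, Ifit1, Oasl2 and Ifi35 had ratios of 2.48, 2.10, 1.86 and 1.63.

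The interferon-related difference was not particular to universal-type cells for every gene. Isg15 was higher with beta-elemene in each of the other classes, with ratios of 1.49 in other fibroblasts, 1.26 in malignant-like, 1.78 in Ptprc-positive, 1.28 in endothelial and 5.34 in mural barcodes, the last from 18 and 26 barcodes. The endothelial barcodes were mixed with myeloid RNA. In them macrophage and monocyte markers summed to 2884 and 2833 CPM and neutrophil markers to 3461 and 2669 CPM, beside 3904 and 3575 CPM of endothelial markers. The ratio of Isg15 in universal-type cells over that in other fibroblasts was 1.4 (1.03 to 1.92), under the limit. Jak2 had a ratio of 1.10 in other fibroblasts, and its ratio of ratios was 1.76, which met the limit. Of the 12 interferon gamma genes 3 had a ratio of ratios above the limit (Jak2, Nmi and Cxcl10), and of the 21 type I genes 1 did (Parp14). Genes of MHC class I presentation had a median log2 ratio of 0.29 in both fibroblast classes, with 2 of 15 higher in universal-type cells, H2-T22 at 1.74 and the peptide transporter Tap1 at 2.89, and none lower. The macrophage markers summed to 232 CPM with beta-elemene and 247 CPM with vehicle in these cells. The endothelial markers summed to 30.4 and 44.4 CPM, and the part of either in the interferon values was not tested.

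**Figure D4:**
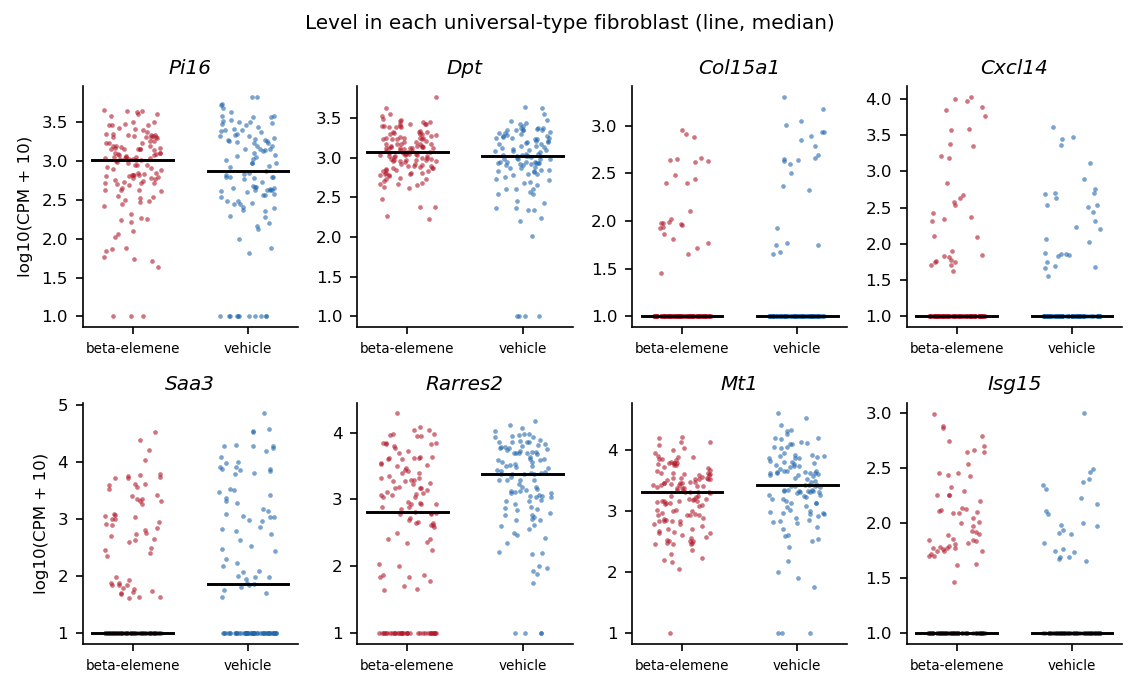
Each point is 1 universal-type cell, with its level on the vertical axis as log10 of CPM plus 10 for 8 genes, beta-elemene left in red and vehicle right in blue, and the line at the median cell. Rarres2 has medians of 637 and 2368 CPM, while Cxcl14 and Col15a1 have medians of 0 in both libraries and a few high cells.

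The highest ratios with beta-elemene came mostly from genes held by few cells. Cxcl14, a chemokine of epithelia and fibroblasts, had 1531 UMIs or 604 CPM with beta-elemene, against 338 UMIs or 203 CPM with vehicle, a ratio of 2.98 (2.65 to 3.36). It had a UMI in 26.8% of cells with beta-elemene and 27.5% with vehicle, and 10 cells held 92.4% and 89.1% of its UMIs. Thinned Ptprc-positive barcodes carried a Cxcl14 UMI in 36.3% and 33.9%, above the 17.1% and 20.9% of thinned universal-type cells, so the share is not read as expression. In other fibroblasts the ratio of Cxcl14 was 0.882. The neuronal gene Brinp3 had 61.2 and 10.2 CPM, a ratio of 6.0 (3.63 to 10.6), and 10 cells held 83.2% of its UMIs with beta-elemene. Tenascin N, encoded by Tnn, had 47.3 and 10.2 CPM, and the cartilage matrix gene Cilp had 66.7 and 18.6 CPM, with 91.7% and 89.3% of their beta-elemene UMIs in 10 cells. Spata7 had a ratio of 4.14 and Fxyd6, a regulator of the sodium pump, one of 2.85, with 84.1% and 77.6% of UMIs in 10 cells, and without those cells Spata7 had a ratio of 1.60 with an interval that held 1. Over all 431 higher genes the median share of UMIs held by 10 cells was 39.6% in the beta-elemene library, and over the 143 lower genes it was 56.5% in the vehicle library.

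Most of the other higher genes named were spread over more cells. Rbbp8, which acts in DNA end resection, had 79.3 CPM with beta-elemene and 32.4 CPM with vehicle, a ratio of 2.45 (1.80 to 3.37), and a UMI in 52.0% and 28.4% of cells. The cell cycle kinase Cdk6 had 49.7 and 20.4 CPM, a ratio of 2.44, and the growth factor Fgf18 had 40.2 and 18.0 CPM, a ratio of 2.24. Prohibitin, encoded by Phb, had 53.3 and 24.6 CPM, a ratio of 2.17 (1.52 to 3.15), with a UMI in 63.0% and 26.6% of cells. Nop14, a ribosome assembly factor, had 41.8 and 19.8 CPM, a ratio of 2.11, the xylosyltransferase Gxylt1 had a ratio of 2.18, and Ltbp4, which anchors latent transforming growth factor beta to microfibrils, had 76.9 and 35.4 CPM, a ratio of 2.17, with 66.7% of its beta-elemene UMIs in 10 cells. These shares were read at the unequal depths given above. Among cells of at least 10000 UMIs, 120 with beta-elemene and 76 with vehicle, the ratios were 2.50 for Rbbp8 and 1.97 for Nop14. When 1 UMI of a gate gene was allowed, the ratios of Fgf18 and Nop14 were 1.29 and 1.30, under the limit.

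Among the other lower genes Col28a1, a collagen of nerve sheaths, had 21.3 CPM with beta-elemene and 79.2 CPM with vehicle, a ratio of 0.269 (0.192 to 0.372), close to the ratio of 0.242 in other fibroblasts, with 83.3% of UMIs in 10 cells of either library. Col15a1 had 47.3 and 101 CPM, a ratio of 0.470 (0.368 to 0.597), against 0.884 in other fibroblasts. The adhesion gene Adam23 had a ratio of 0.496, Smim27 one of 0.515 and the nitric oxide synthase gene Nos2 one of 0.539, with 94.0% of Nos2 UMIs in 10 cells with beta-elemene. The mitotic gene Cenpf had a ratio of 0.543 with 96.8% of its vehicle UMIs in 10 cells, Ranbp9 one of 0.543, the calcineurin subunit gene Ppp3cc one of 0.548 and the proteasome assembly gene Psmg2 one of 0.566. Timp1, an inhibitor of matrix metalloproteinases, had 928 CPM with beta-elemene and 1415 CPM with vehicle, a ratio of 0.656, against 1.12 in other fibroblasts. Without the 10 cells richest in the gene in each library, Timp1 had a ratio of 0.866, not low enough for a call. Col15a1 then had a ratio of 0.658 (0.387 to 1.12), Ranbp9 one of 0.678 (0.407 to 1.13) and Ppp3cc one of 1.21 (0.594 to 2.60), while Cenpf was left with 5 and 2 UMIs. In that setting the median log2 ratio of all genes stood at 0.36, so ratios were higher in general.

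The rule selects for the identity genes in each library, so their levels under the treatments are a description. Of 19 measured adventitial progenitor genes none was higher and none lower with beta-elemene, with a median log2 ratio of 0.15. Over all genes 5.89% were higher and 1.95% lower, with a median of 0.13. With shares this low, a short list without a call is not read as a result. Clec3b had 850 and 625 CPM, Ly6a 1847 and 1595 CPM, Cd34 425 and 384 CPM and Dpp4 177 and 194 CPM. In the matrix lists, of 8 fibrillar collagens 1 was lower (Col24a1) and 7 were neither, with a median of -0.17, and of 8 small leucine-rich proteoglycans, of 21 collagen processing genes and of 13 Wnt genes none was called. Of 12 other collagens on the list, which does not hold Col28a1, 2 were lower, Col15a1 and Col18a1. Without the 10 cells richest in the gene in each library, Col24a1 was left with 5 and 2 UMIs, a ratio of 1.64. Col18a1 then had a ratio of 0.774 (0.385 to 1.57). Collagens Col1a1, Col1a2 and Col3a1, used by the rule, had 8443 and 9506, 11199 and 12014, and 17205 and 19232 CPM.

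The lists below are read beside the 5.89% of all genes called higher and the all-gene median of 0.13. Of 10 adipogenic genes 4 were higher and none was lower, with a median of 0.38. Lpl had 297 CPM with beta-elemene and 187 CPM with vehicle, a ratio of 1.59 (1.39 to 1.82), the lipocalin Apod had 283 and 185 CPM, a ratio of 1.53 (1.34 to 1.75), and the transcription factor Cebpd had 291 and 190 CPM, a ratio of 1.53 (1.34 to 1.76). Fabp4, a fatty acid carrier, had 35.9 and 22.2 CPM, against 5572 CPM in endothelial barcodes with beta-elemene, and its source was not tested. With trimmed-mean scaling 1 of the 10 was higher and 1 lower, with 1 UMI of a gate gene allowed none was, and among cells of at least 10000 UMIs 2 of 9 were higher. The defining adipocyte genes Adipoq, Plin1, Lep and Cfd had no UMI in the beta-elemene cells. Of 25 growth factors 5 were higher (Fgf18, Pdgfc, Angptl1, Hbegf and Mdk) and 2 lower (Fgf10 and Slit2), with a median of 0.04, or -0.06 under trimmed-mean scaling and -0.01 when mitochondrial and ribosomal protein UMIs were left out of the total. Without the 10 cells richest in the gene in each library, Angptl1 was left with 1 and 0 UMIs. Fgf10 was left with 6 and 2 UMIs, a ratio of 1.97. Fgf18, Pdgfc, Hbegf, Mdk and Slit2 kept their side of the limit, where the all-gene median log2 ratio was 0.36. Of 5 IGF-binding proteins 2 were higher. Igfbp5 had 285 and 161 CPM, a ratio of 1.77 (1.54 to 2.05), and 2.23 in other fibroblasts, while Igfbp3 had 61.2 and 14.4 CPM, all of the beta-elemene UMIs in at most 10 cells, and without the top cell of each library 1 of the 5 was higher and 1 lower, with Igfbp3 at a ratio of 0.183. Of 27 redox and xenobiotic genes 3 were higher (Gclm, Cat and Gstt1) and none was lower, but 1 was higher and 2 lower under trimmed-mean scaling, and none was called with 10 CPM added. Of 32 immediate early and heat shock genes 3 were higher, Hspb1 at 231 and 131 CPM, Nr4a2 and Nr4a3, and none was lower, with a median of 0.21, and 2 were higher and 1 lower under trimmed-mean scaling.

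**Figure D5:**
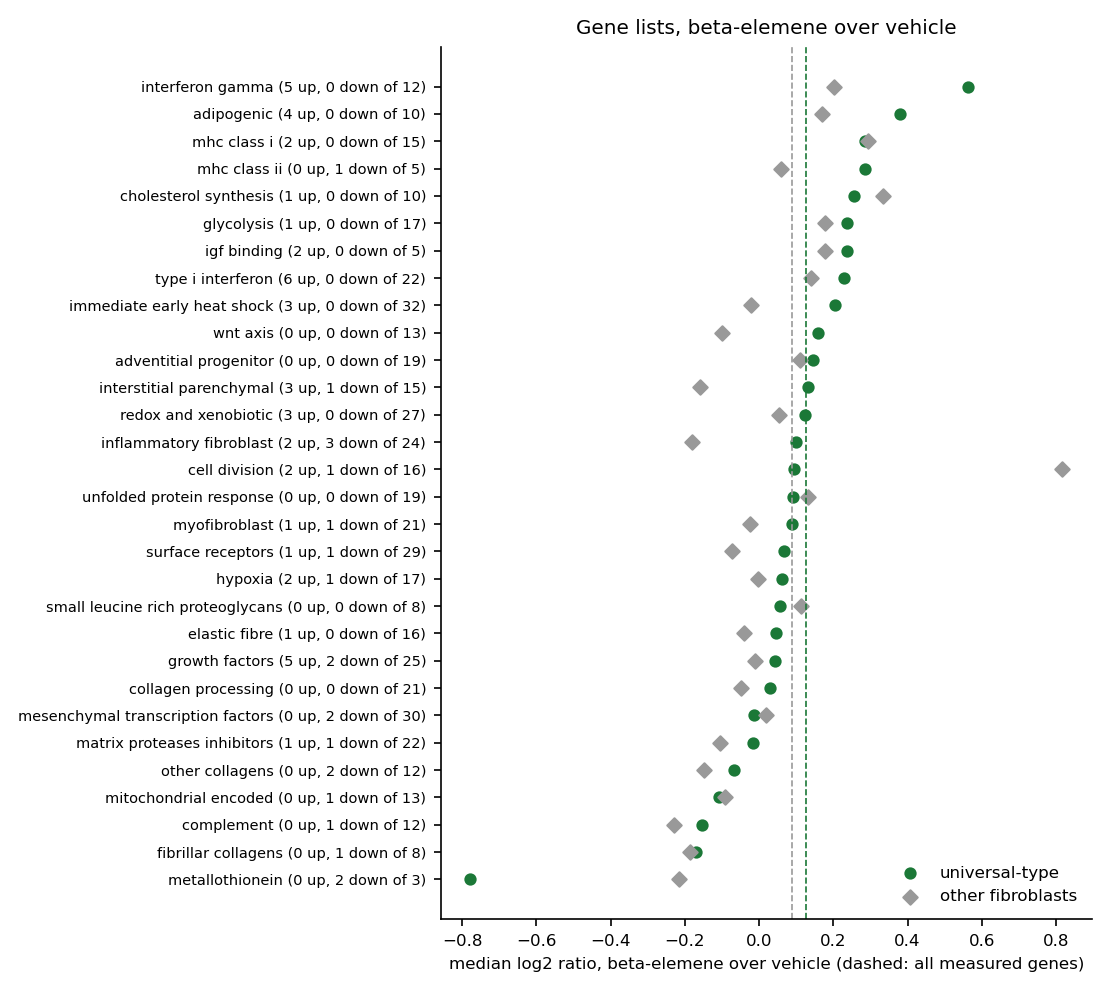
Median log2 ratio of beta-elemene over vehicle for 30 gene lists, with green circles for universal-type fibroblasts and grey diamonds for other fibroblasts, and dashed lines at the medians of all measured genes, 0.13 and 0.09. Labels give the genes called higher and lower in universal-type cells. Interferon gamma stands highest at 0.56, metallothionein lowest at -0.78, and cell division has 0.09 in universal-type cells and 0.82 in other fibroblasts.

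Cell division genes differed between the libraries in other fibroblasts more than in universal-type cells. Between the 2 classes, 0 of 17 measured genes were 2-fold higher or lower in both libraries. In universal-type cells 2 of 16 were higher (Pcna and Rrm2), 1 was lower (Cenpf) and 13 were neither, with a median log2 ratio of 0.09, or -0.01 under trimmed-mean scaling and 0.43 as a mean over cells, with 4 higher and 2 lower. In other fibroblasts 12 of 20 were higher and none lower, with a median of 0.82. The ratio in universal-type cells was at least 1.5-fold below that in other fibroblasts for 8 of 16 genes, where 2.63% of all genes were, and above it for none. Mki67, the proliferation antigen, had 52.1 and 49.8 CPM in universal-type cells, a ratio of 1.05 (0.789 to 1.39), against a ratio of 2.13 in other fibroblasts. The mitotic kinase Cdk1 had ratios of 0.808 and 1.98, and Birc5 had 0.921 and 1.78. Thinned cells with a Mki67 UMI were 7.32% of universal-type cells with beta-elemene and 11.0% with vehicle, below the 14.6% and 16.3% of Ptprc-positive barcodes, so this share is not read as a count of dividing cells. Neutrophil markers moved with these genes in other fibroblasts, where the 7 markers summed to 179 CPM with beta-elemene and 72.4 CPM with vehicle, against 124 and 131 CPM in universal-type cells, and their part was not tested.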

How the data were processed

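Single-cell RNA sequencing libraries of 4T1 tumours, 1 from beta-elemene and 1 from vehicle mice, were used. The deposited values are counts, unnormalised UMI counts per gene and barcode that the authors made with Cell Ranger 7.1.0, per the file headers. Per the submitters' processing notes reads were processed with Cell Ranger and STAR on build mm10. Whether intron reads were counted, and how cells were told from empty droplets, is not given in the sources used here. Depth was 157282740 UMIs in 11539 barcodes with beta-elemene and 168750895 UMIs in 11324 barcodes with vehicle. The libraries share 37 barcode sequences, none of them a universal-type cell in either library.

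Universal-type cells were selected by the UMI rule given in the report. Their members and all gene lists were chosen with earlier results of these data known. Other fibroblasts passed the same gates and had at least 3 contractile UMIs and more contractile than universal-type UMIs. Ptprc-positive barcodes had a Ptprc UMI, no Epcam or Pecam1 UMI and under 3 keratin (Krt8 and Krt18) UMIs. Endothelial barcodes had a Pecam1 UMI, no Ptprc or Epcam UMI and under 3 keratin UMIs, and they also held myeloid markers. Malignant-like barcodes had at least 3 keratin UMIs and no Ptprc or Pecam1 UMI. All of these had a collagen share under 1%. Mural barcodes had at least 3 UMIs of Rgs5 and Notch3, under 3 keratin UMIs and no UMI of Ptprc, Epcam or Pecam1. Doublets were scored with scrublet in scanpy 1.11.5 and not removed, since no member was called.

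UMIs were summed per class and library and scaled to CPM of that sum. Ratios have exact conditional binomial intervals, shares have Clopper-Pearson intervals, and ratios of ratios have intervals on the log scale. A gene was measured with at least 50 UMIs in the 2 sums together. Named genes were the 14 highest and 14 lowest ratios among called genes with at least 100 UMIs in the 2 sums together, a UMI in at least 10% of cells of the higher library, the same call without the top cell of each library and at least 20% of the level of the highest class, and the 12 highest and 8 lowest against other fibroblasts, leaving out mitochondrial, ribosomal protein, haemoglobin and immune receptor genes and unnamed models. The rule also allows the 3 most abundant and 2 most extreme genes of each list, of which those of the lists described at length are given, and further called list members and genes of the splits were named after their values were seen. Python 3.11.15, numpy 2.4.6, pandas 2.3.3 and scipy 1.17.1 were used. On simulated counts with 7315 genes, 98.5% of genes changed 3-fold, 92.5% changed 2-fold and 47.8% changed 1.5-fold were called, and 2.01% of unchanged genes. The simulated counts were drawn per gene and library with counting error only, without cells. The real UMIs are uneven between cells, so these rates do not tell how many of the real calls are false. Gene coordinates are from GENCODE vM21, which matched 32235 of 32285 gene IDs, and promoter sequences are from RefSeq. Results for some items are not reported here.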

Additional observations from a re-analysis of the deposited data

How the results depend on the processing

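With 1 library per group no library could be left out, and no paired analysis was possible because the groups share no pair of libraries. Higher genes, 431 as reported, numbered 232 with trimmed-mean scaling, 728 with the mean over cells, 90 with at least 200 UMIs and 188 with 10 CPM added. Lower genes, 143 as reported, numbered 235 with trimmed-mean scaling, 216 with the mean over cells, 215 with at least 20 UMIs, 42 with at least 200 UMIs and 77 with 10 CPM added. Leaving out, for each gene, the 10 cells with most of its UMIs in each library gave 1265 higher and 43 lower genes and moved the median of all genes to 0.36, with the full library totals kept as denominators. The 10 cells were taken from 127 cells with beta-elemene and from 109 with vehicle, and the cause of the shift was not tested. Ratios without the 10 richest cells are to be read beside this median, for lower and for higher genes. With 1 UMI of a gate gene allowed 385 were higher and 151 lower, of which 216 and 87 were among the genes reported. Against other fibroblasts, at least 200 UMIs left 186 genes higher and 176 lower. The settings chosen after seeing the data were the 10 cells left out, cells of at least 10000 UMIs, and 1 UMI of a gate gene allowed, and the splits by Col15a1 and Dpp4 were added then too.

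Of 398 recomputed ratios of named genes 390 kept their direction and their side of the limit, 7 fell short of the limit and 1 reversed, Ppp3cc at 1.21 without its 10 richest cells. Part of this was fixed in advance. Genes named between treatments had to keep their call without the top cell, and no universal-type cell was a doublet. Intervals could still hold 1, as for Spata7 at 1.60 without its 10 richest cells. Of 12 recomputed shares of cells with a UMI 7 moved, and of 57 headline values 13 moved. Of 433 recomputed list medians 24 moved. Depth limits the low genes: a gene at the 50 UMI minimum has wide intervals, and 236 cells in all allow few statements on shares.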

Other observations

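Among markers of other cell types, 1 gene stood out in the universal-type cells. Cd3e, a subunit of the T cell receptor complex, had 182 CPM with beta-elemene and 173 CPM with vehicle, a ratio of 1.05 (0.904 to 1.22), and 76.0 and 114 CPM in other fibroblasts. A Cd3e UMI was seen in 45.7% and 39.4% of the cells. Its partner Cd3d had 0.395 and 0 CPM, and Trbc2, Cd2 and Ncr1 had no UMI in the beta-elemene cells, so Cd3e supplied nearly all of the 183 and 178 CPM of the T and natural killer cell markers. The pericyte markers Kcnj8 and Abcc9, both subunits of a potassium channel, had 65.9 and 88.8 CPM and 35.5 and 54.0 CPM, above other fibroblasts in both libraries, while Mcam, Des and Higd1b had no UMI in the beta-elemene cells.

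The counts here are read beside the 5.89% of all genes called higher and the 1.95% called lower. Of 88 measured ribosomal protein genes, a list added after the data were seen, none was higher with beta-elemene and 8 were lower. The summed share of UMIs of the 88 genes was 14.7% with beta-elemene and 15.2% with vehicle. Of 30 mesenchymal transcription factors 2 were lower, Nr2f2 at 10.7 and 22.2 CPM and Snai1 at 12.6 and 21.6 CPM, and none was higher. Pdgfrb, a receptor of mural cells and fibroblasts, had 23.7 and 42.6 CPM, a ratio of 0.556, against 1.01 in other fibroblasts. Tnc, a gene of the selection rule, had 101 CPM with beta-elemene and 166 CPM with vehicle.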
